A study of Mus musculus with 63 samples.

Results

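The genes described here are 10 transcripts that mark mesothelial cells and fibroblasts, measured in RNA of mouse peritoneal macrophage cultures. They were chosen by symbol, with earlier results of these data known: Msln, Krt19, Upk3b and Wt1 as 4 mesothelial genes, and Col1a1, Col1a2, Col3a1, Dcn, Lum and Igfbp3 as 6 genes of fibroblasts and their matrix. All 10 were found among the 56748 genes of the count table and all 10 were kept by the filter on low counts, which left 22147 genes for testing.

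The mesothelium is the single layer of flattened epithelial cells that lines the peritoneal cavity and covers the organs in it, and it is of mesodermal origin. Below it lies a sheet of connective tissue whose fibroblasts secrete fibrillar collagens and the small proteoglycans that bind to them. Macrophages are washed out of this cavity, and macrophages themselves are not known as a main source of fibrillar collagen, mesothelin or keratins.

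The knock-in libraries came from mice with the R1441C change in their own Lrrk2 gene, and the wild-type libraries from B6 mice. Lrrk2 encodes a kinase with a GTPase domain that is linked to inherited Parkinson's disease. All mice, of either genotype, received 3% thioglycollate in the peritoneum 72 h before collection and slow-release buprenorphine for pain, and the lavaged cells were left to adhere, washed, and given 100 U of interferon-gamma (IFN) or water as vehicle for 18 h. Per the design text, old mice were 18 to 21 months and young mice 2 to 3 months. The 31 knock-in libraries fell into 8 groups, in the order old IFN, old untreated, young IFN and young untreated, with 5, 5, 2 and 5 from females and 5, 3, 3 and 3 from males. In the same order, the 32 wild-type libraries comprised 5, 5, 3 and 3 from females and 5, 3, 5 and 3 from males. The labels do not say whether libraries of a group came from separate animals, so p-values measure the spread between libraries, which may be technical.

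Total counts ran from 73.6 to 106.6 M per library. In every library the summed level of 10 macrophage genes, such as Lyz2, Csf1r and Adgre1, was 19170 to 38950 CPM, the count scaled to library size. Lrrk2 itself was at 23.4 to 269.3 CPM in knock-in and 24.3 to 226.2 CPM in wild-type libraries, and the base change cannot be seen in gene counts. Knock-in old IFN females 4 and 5 had 1.55 to 1.69 CPM of Xist, against 120.1 to 562 CPM in the other females and at most 14.7 CPM in males. Their level of Ddx3y, a Y-linked gene, was 0.624 and 0.601 CPM, within the 0 to 8.93 CPM of all females and under the 33.9 to 67.9 CPM of males. Gbp2, an IFN-induced GTPase named after its values were seen, had 4372 to 7510 CPM across all 36 old-labelled libraries and 13.5 to 883 CPM across the 27 young-labelled ones, but 16.7 to 6663 CPM with the IFN label and 13.5 to 7510 CPM without it. Levels of Gbp2 thus fell into separate ranges by labelled age but overlapped by labelled treatment, and whether the 2 labels were exchanged could not be settled here. The 3 knock-in old males titled untreated also carry an interferon-gamma treatment entry. Every comparison of age or treatment below is therefore one of labels, and one by the age label may be one by treatment, or the reverse. Of 102 pairs of libraries from the same group, 17 were more alike than any pair from different groups, although none agreed within counting noise. Libraries linked by such pairs are called near-identical below, although their squared scatter was at least 3.46 times that of counting. A linked set can hold a pair that is itself not among the 17. The results are therefore also given with 31 such libraries summed into 14.

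Promoters were available for 4 of the 10 genes in RefSeq (GRCm38.p6, 250 bases before to 50 after the annotated start), and 3 are printed. The promoters of Col1a2 and Col3a1 are shown because these collagen genes moved together in the libraries. That of Igfbp3 is shown because its level did not follow theirs over all 63 libraries, with both age labels pooled. The lines give Col1a2 at chr6:4505368-4505667 (+ strand), Col3a1 at chr1:45311288-45311587 (+ strand) and Igfbp3 at chr11:7213874-7214173 (- strand), 5′ to 3′.
Col1a2: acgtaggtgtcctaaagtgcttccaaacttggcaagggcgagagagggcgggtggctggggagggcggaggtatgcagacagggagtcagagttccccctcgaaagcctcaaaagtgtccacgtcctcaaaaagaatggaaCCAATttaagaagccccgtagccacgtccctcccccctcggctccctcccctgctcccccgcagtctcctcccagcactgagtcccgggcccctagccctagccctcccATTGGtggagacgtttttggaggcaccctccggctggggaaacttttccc
Col3a1: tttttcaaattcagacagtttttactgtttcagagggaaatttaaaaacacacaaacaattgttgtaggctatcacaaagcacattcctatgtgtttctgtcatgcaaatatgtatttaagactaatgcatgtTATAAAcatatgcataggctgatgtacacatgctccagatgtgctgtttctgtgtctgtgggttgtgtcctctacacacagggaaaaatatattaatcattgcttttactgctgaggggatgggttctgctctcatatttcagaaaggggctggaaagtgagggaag
Igfbp3: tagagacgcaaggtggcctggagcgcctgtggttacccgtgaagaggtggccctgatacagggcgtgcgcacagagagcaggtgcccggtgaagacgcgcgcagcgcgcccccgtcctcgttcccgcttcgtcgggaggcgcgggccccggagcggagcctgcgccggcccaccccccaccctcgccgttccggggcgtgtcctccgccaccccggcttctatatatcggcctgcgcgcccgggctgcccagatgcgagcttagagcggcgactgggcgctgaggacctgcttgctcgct
Capitals mark CCAAT or its reverse complement ATTGG, and TATAAA. Both strands were searched for CCAAT, the box bound by NF-Y, and for the TATA box as TATAAA, and no matches overlapped in these promoters. Only exact matches were marked, so variants such as tatatat in Igfbp3 stay in small letters. A match does not show a working box, nor does its absence exclude one. Col1a2 held CCAAT at position -109 and its reverse complement at position 1 from the annotated start, and Col3a1 held TATAAA at position -117. Of 32851 promoters of the same length, 37.4% held CCAAT and 13.6% TATAAA.

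The 10 genes spanned a wide range of abundance. On the FPKM scale, which divides by gene length, the median level over the 63 libraries was 9.90 for Col1a1 (ENSMUSG00000001506) and 6.79 for Col1a2 (ENSMUSG00000029661), the chains that together form type I collagen. It was 2.95 for Col3a1 (ENSMUSG00000026043), the chain of type III collagen, and 1.65 for Dcn (ENSMUSG00000019929), decorin, a small leucine-rich proteoglycan that binds collagen fibrils. Igfbp3 (ENSMUSG00000020427), which binds insulin-like growth factors in blood and tissue, had a median of 0.533 FPKM. The mesothelial genes followed, with 0.309 FPKM for Wt1 (ENSMUSG00000016458), a zinc-finger transcription factor of mesothelium and podocytes, and 0.184 FPKM for Msln (ENSMUSG00000063011), the cell-surface protein mesothelin. Krt19 (ENSMUSG00000020911), a keratin of simple epithelia, had a median of 0.179 FPKM, Upk3b (ENSMUSG00000042985), a membrane uroplakin, 0.0712 FPKM, and Lum (ENSMUSG00000036446), the proteoglycan lumican, 0.0243 FPKM. Each neighbouring pair in this order overlapped in its range over the libraries, and Msln and Krt19 differed by less than their spread.

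Between libraries the levels differed by more than an order of magnitude, and no member was at 0 throughout. In CPM, Col1a1 ran from 6.63 to 210.3 with a median of 65.5, Col1a2 from 5.37 to 256 and Col3a1 from 2.24 to 78.0. Dcn ran from 1.54 to 21.6 CPM, Igfbp3 from 0.0303 to 10.2 CPM and Wt1 from 0.0487 to 8.42 CPM. Wild-type old IFN female 2 held the lowest level of Col1a1, Col1a2, Col3a1, Dcn, Wt1 and Krt19 of all libraries, and knock-in young untreated females held the highest. Msln ran from 0.0832 to 1.43 CPM and Krt19 from 0.0292 to 2.05 CPM. Upk3b had 0 to 163 counts, with 2 libraries at 0, and Lum 0 to 54 counts, with 7 libraries at 0 and 23 at 3 counts or fewer. A count of 3 corresponded to 0.0276 to 0.0368 CPM, so that Lum was at or under this limit in 23 of 63 libraries. Col1a2 and Col3a1 each overlap a small gene on the same strand (Gm43921 and Gm47302 in GENCODE vM21), and reads shared with these could not be told apart.

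**Figure D1:**
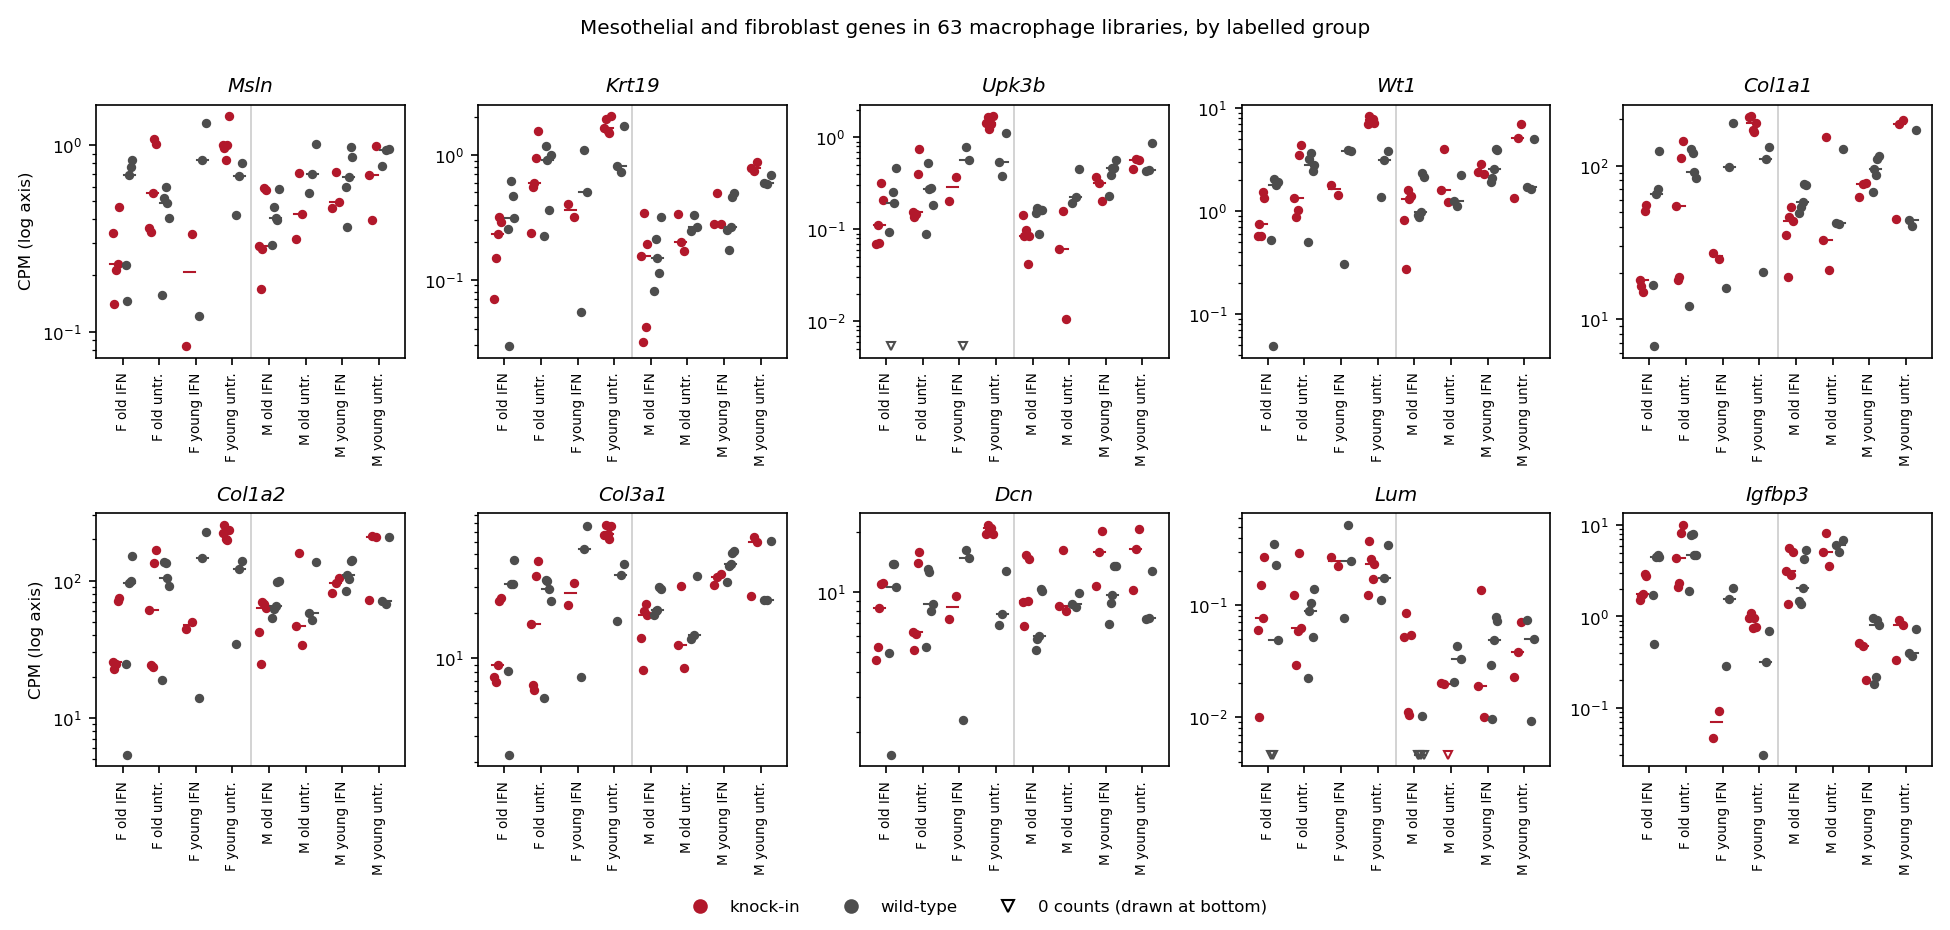
Level of the 10 genes in CPM (log axis) in each of the 63 libraries, by sex, age label and treatment label, with knock-in left of wild-type. Points are libraries, short lines are group medians, and open triangles are libraries with 0 counts. The 5 knock-in young untreated females sit at 165 to 210.3 CPM of Col1a1, and Igfbp3 is high in groups labelled old.

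Most of the 10 genes went up and down together from library to library. The Spearman rho of their CPM over the 63 libraries was 0.984 between Col1a1 and Col1a2, 0.958 between Col1a2 and Col3a1, and 0.926 between Wt1 and Col1a1, next to 0.93 between Col3a1 and Col1a1. Upk3b had a rho of 0.828 with Wt1 and 0.788 with Krt19. Lum ran less closely with the others, with rho from 0.356 to 0.611 apart from Igfbp3. With all 63 libraries pooled, Igfbp3 had low rho with all 9, from -0.274 with Upk3b to 0.099 with Dcn. Per CPM of Col1a1, its level differed between the age labels, as given below, and rho within a label was not computed. In knock-in old untreated females it rose with Col1a1, from 2.09 CPM beside 17.9 CPM to 10.2 CPM beside 144.7 CPM. In knock-in young IFN males it did not, with 0.516 CPM beside 62.1 CPM and 0.201 CPM beside 77.4 CPM. Within a library the genes share its RNA and depth, and libraries share their groups, so these values are descriptions.

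By the same measure, the genes most like Col1a1 were Col1a2, Fbln2 (0.984), which encodes the matrix protein fibulin-2, Serpinh1 (0.979), the collagen chaperone HSP47, Col5a1 (0.977) and Dbn1 (0.971), which encodes the actin-binding drebrin. The genes most like Msln were Upk1b (0.822), a uroplakin of mesothelium, Tm4sf1 (0.814), a membrane protein of endothelial and mesothelial cells, Fkbp10 (0.813), a collagen chaperone, Cavin1 (0.81), a coat protein of caveolae, and Bnc1 (0.805), basonuclin. For Igfbp3, examined after its values were seen, they were Apol6 (0.946), Apol11b (0.921), Myh10 (0.918), Pla2r1 (0.913) and Cd180 (0.907), and none of these 5 was in the mesothelial or fibroblast lists.

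The knock-in and wild-type libraries were set against each other first, since the effect of the R1441C change by sex and age is the stated question of the study. Averaged over the 8 combinations of sex, age label and treatment label, 0 of the 10 genes were called, where 1.16% of all tested genes were. Calls here and below are at an adjusted p of 0.05 in the edgeR quasi-likelihood test with Benjamini-Hochberg adjustment over all tested genes. At an unadjusted p of 0.05, 2 of the 10 genes passed, where 17% of all genes did. Dcn had a log2 fold change of 0.35 ± 0.16 (SE; unadjusted p = 0.034, adjusted p = 0.252) and Msln of -0.37 ± 0.18 (unadjusted p = 0.0479, adjusted p = 0.289), knock-in over wild-type. Col1a1 had -0.30 ± 0.26, with a 95% interval from -0.82 to 0.21, and Wt1 had 0.09 ± 0.23, with an interval from -0.37 to 0.56. The DESeq2 test also called 0 of the 10 genes here.

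**Figure D2:**
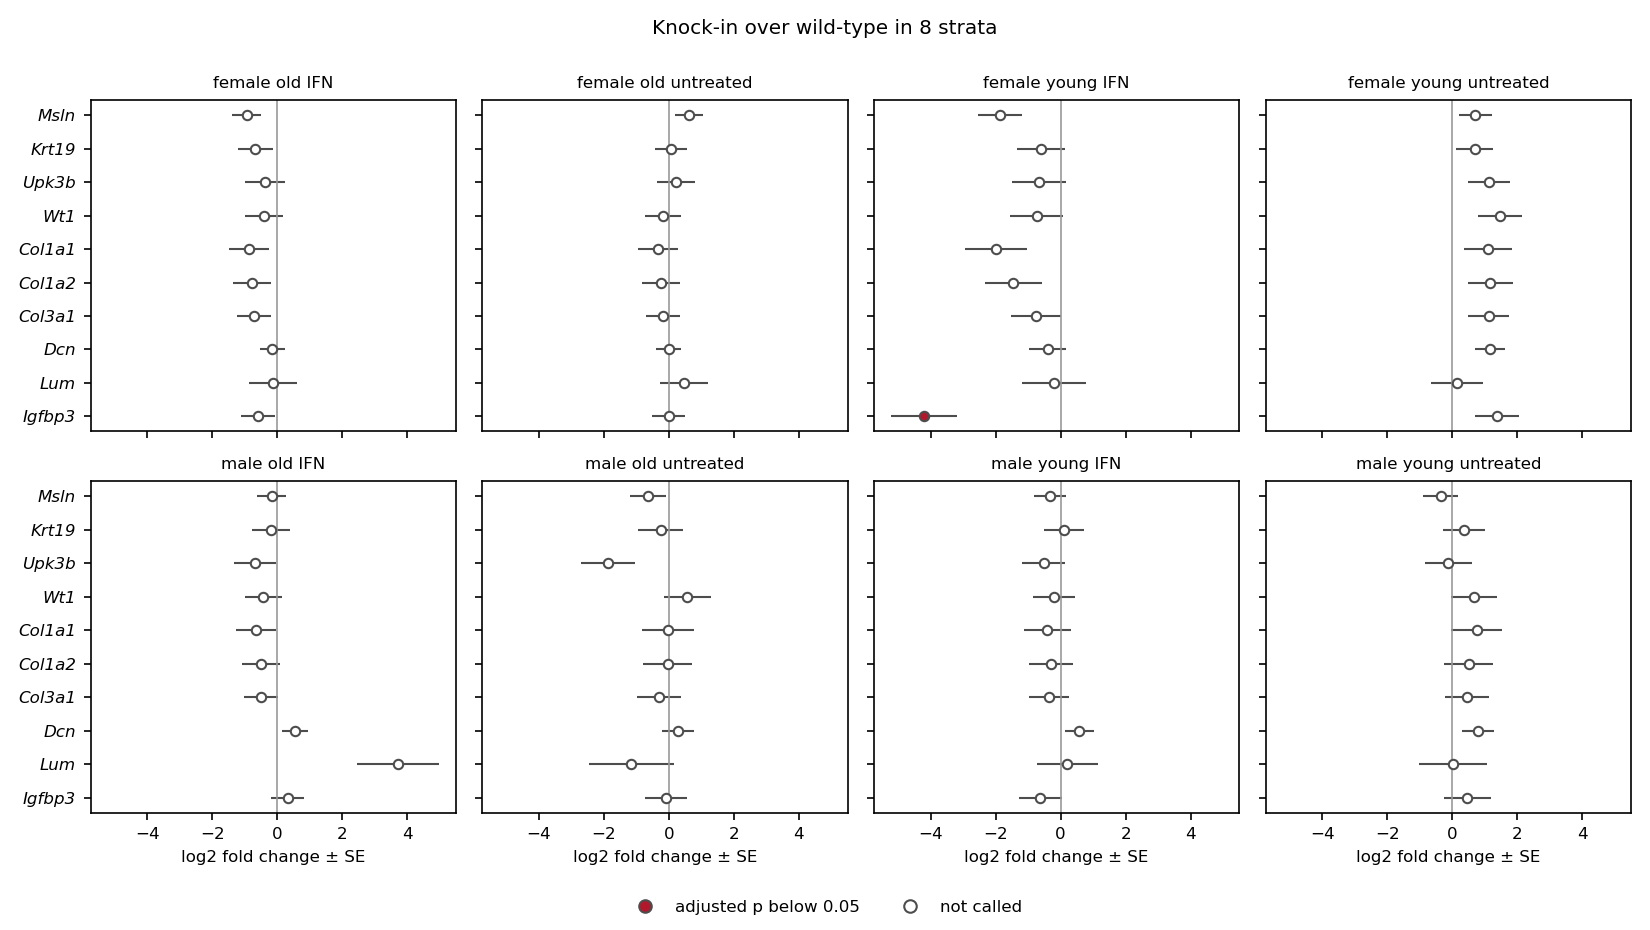
Log2 fold change of the 10 genes, knock-in over wild-type, in each of the 8 combinations of sex, age label and treatment label. Points are edgeR estimates with bars of 1 SE, and filled points passed an adjusted p of 0.05. Igfbp3 in young IFN females, at -4.21, is the single filled point, and in young untreated females all 10 points lie above 0.

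Within strata, Igfbp3 in young IFN females was the one call. It was at 0.0462 and 0.0929 CPM in knock-in libraries, against 0.287, 1.57 and 2.04 CPM in wild-type libraries. The log2 fold change of Igfbp3 was -4.21 ± 1.03 (adjusted p = 0.0132), where 3.79% of all genes were called. Its knock-in levels are counts of 5 and 10, not far above the limit of 3. The knock-in side of this comparison is 1 of the near-identical pairs, although Msln differed within it (9 and 36 counts). Without either library, or with both summed, this side is 1 library and Igfbp3 was no longer called. Over the 5 fits without 1 library, its log2 fold change ran from -4.78 to -3.71. Col1a1 was at 24.5 and 26.9 CPM in the same knock-in libraries, against 15.8, 98.1 and 189 CPM in wild-type libraries, so that the groups overlapped, and its log2 fold change was -1.98 ± 0.95 (adjusted p = 0.233). Msln was at 0.0832 and 0.334 CPM in the knock-in libraries, against 0.121, 0.829 and 1.31 CPM in the wild-type libraries. It was not called, with -1.85 ± 0.67 (adjusted p = 0.104, and 0.0388 by DESeq2).

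In young untreated females the values pointed the other way, without a call, and the overlap given here was examined after the values were seen. Col1a1 was at 165, 170.4, 191, 208 and 210.3 CPM in knock-in libraries, against 20.2, 110.4 and 133 CPM in wild-type libraries. Wt1 was at 7.13, 7.18, 7.69, 7.88 and 8.42 CPM in knock-in libraries, against 1.36, 3.13 and 3.84 CPM in wild-type libraries. All 5 knock-in libraries lay above all 3 wild-type libraries for 8 of the 10 genes, as they did for 6.1% of all tested genes. Most members move together over the libraries, so these 8 are not separate observations. Knock-in libraries 3 and 4 are also a near-identical pair. The log2 fold change was 1.46 ± 0.67 for Wt1 (adjusted p = 0.344), 1.17 ± 0.46 for Dcn (adjusted p = 0.249) and 1.10 ± 0.73 for Col1a1 (adjusted p = 0.563), and 0 of the 10 genes were called, where 0.312% of all genes were. All 10 were positive, with a median of 1.13 against 0.00 over all genes.

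In old females with the IFN label all 10 genes were negative, with a median log2 fold change of -0.63, and 0 were called, where 4.48% of all genes were. At an unadjusted p of 0.05, Msln alone passed (-0.935 ± 0.445, edgeR unadjusted p = 0.0406, adjusted p = 0.204), where 22% of all genes did. This stratum holds wild-type old IFN female 2 and the 2 knock-in females low in Xist. Without those 2 females 168 of 22132 genes were called, against 992 of 22147. Old untreated females (0.00452% of genes called), old untreated males (0.00452%), young IFN males (0.0181%) and young untreated males (0%) also gave 0 of 10. At an unadjusted p of 0.05, 1 gene passed in old untreated males, Upk3b with -1.88 ± 0.83 (adjusted p = 1.0), and 0 in the other 3 of these strata. Of all genes, 3.35% passed that limit in old untreated males, 19.4% in old untreated females, 8.35% in young IFN males and 11.6% in young untreated males. In old IFN males, where 5.92% of genes were called, the largest value was that of Lum. Lum was at 0.0104, 0.0111, 0.0514, 0.0536 and 0.085 CPM in knock-in libraries, against 0, 0, 0, 0 and 0.0102 CPM in wild-type libraries. These values are counts of 1 to 8 against 0 and 1, and Lum was not called (log2 fold change 3.73 ± 1.27, adjusted p = 0.0619), although it was without 4 female libraries (knock-in old IFN females 4 and 5, wild-type young IFN female 1 and wild-type old IFN female 2), left out after seeing the data (adjusted p = 0.0407). The difference in the effect of the age label between genotypes was called for 0 of 10 genes (0% of all genes called, with 609 genes at an unadjusted p of 0.05, and 2 genes called by DESeq2), and that of sex for 0 of 10 (0.00452%). At an unadjusted p of 0.05, 0 of 10 passed in either, where 2.75% of all genes did for age and 16.5% for sex.

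Among knock-in libraries, several mesothelial and collagen transcripts were lower with the IFN label than without it. Averaged over sex and labelled age, 6 of the 10 genes were lower in knock-in libraries with the label and 0 were higher, where 7.98% of all genes were called and 4.31% were lower. In bulk RNA, fewer cells of a type and less RNA per cell cannot be told apart. Krt19 had a lowest, median and highest level of 0.0319, 0.277 and 0.497 CPM in the 15 IFN libraries, against 0.171, 0.827 and 2.05 CPM in the 16 untreated libraries, a log2 fold change of -1.48 ± 0.32 (adjusted p = 0.00156). Col1a1 had 15.0, 43.3 and 77.4 CPM in IFN libraries, against 17.9, 149.4 and 210.3 CPM in untreated libraries, and fell by 1.46 ± 0.38 on the log2 scale (adjusted p = 0.00963). The ranges overlapped at the low end, and no IFN library reached the untreated median of Col1a1. Wt1 had 0.276, 1.404 and 2.87 CPM in IFN libraries, against 0.879, 4.21 and 8.42 CPM in untreated libraries (log2 fold change -1.34 ± 0.35, adjusted p = 0.008).

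Msln fell by 1.06 ± 0.27 (adjusted p = 0.00676), Col1a2 by 1.13 ± 0.36 (adjusted p = 0.0374) and Igfbp3 by 1.62 ± 0.36 (adjusted p = 0.00202) on the log2 scale. Upk3b had a log2 fold change of -1.0 ± 0.37 (adjusted p = 0.086), Col3a1 of -0.63 ± 0.32 (0.246), Dcn of -0.38 ± 0.23 (0.356) and Lum of 0.49 ± 0.49 (0.634). Over the 10 genes the median was -1.10, against -0.01 over all tested genes. Igfbp3 (adjusted p = 0.0271) and Krt19 (adjusted p = 0.0366) were still called with near-identical libraries summed, and the other 4 were not, with adjusted p from 0.0613 for Msln to 0.185 for Col1a2. Msln was lost without knock-in young IFN female 1 (adjusted p = 0.0764), and Col1a1 without either young IFN female or without knock-in old untreated male 4, with adjusted p up to 0.0564. Col1a2 was called in 18 of the 31 fits that left out a knock-in library. Without knock-in young IFN female 1 that group held 1 library, so the count of members called in that fit is not read as a result.

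Among wild-type libraries the label gave 1 call of 10, a lower level, where 31.3% of all genes were called and 15.6% were lower. Krt19 had 0.0292, 0.26 and 1.09 CPM in the 18 IFN libraries, against 0.224, 0.641 and 1.70 CPM in the 14 untreated libraries, and fell by 0.92 ± 0.30 on the log2 scale (adjusted p = 0.0138), a call that was lost with near-identical libraries summed (adjusted p = 0.225). Col1a1 had 6.63, 73.0 and 189 CPM in IFN libraries, against 12.1, 87.1 and 171 CPM in untreated libraries, a log2 fold change of -0.11 ± 0.35 with a 95% interval from -0.82 to 0.60. Wt1 had -0.27 ± 0.32 and Igfbp3 0.09 ± 0.31, with intervals from -0.91 to 0.37 and from -0.53 to 0.71.

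The knock-in change minus the wild-type change passed for Igfbp3 alone of the 10 genes, where 12% of all genes were called. The difference was -1.71 ± 0.48 on the log2 scale (adjusted p = 0.0149), and adjusted p was 0.144 with near-identical libraries summed. In libraries labelled young, Igfbp3 had a median of 0.201 CPM with the IFN label against 0.862 CPM without it in knock-in, and of 0.853 CPM against 0.385 CPM in wild-type. In libraries labelled old the medians were 2.81 CPM against 4.77 CPM in knock-in and 3.13 CPM against 5.61 CPM in wild-type. For the other 9 genes the difference had adjusted p from 0.0734 (Col1a1, -1.35 ± 0.52) to 0.644 (Upk3b, -0.40 ± 0.49), and all of them but Lum were negative.

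Wild-type young IFN female 1 and wild-type old IFN female 2 stood apart from the other libraries. Their summed level of 28 fibroblast genes was 89.6 and 52.7 CPM, the lowest of all libraries, where the other libraries reached up to 1113 CPM. The same pair held the highest summed level of 8 B cell genes, 1403 and 866 CPM, and of 7 genes of resident large peritoneal macrophages, 2780 and 931 CPM. All 8 B cell genes were higher with the IFN label in either genotype, with summed levels of 32.4 to 271 CPM in IFN libraries against 12.7 to 54.1 CPM in untreated libraries of knock-in, and of 21.2 to 1403 CPM against 5.98 to 28.7 CPM in wild-type. All 5 red cell genes were also higher in either genotype, as were 5 of 8 T and NK cell genes in knock-in and 6 of 8 in wild-type, and 0 of 7 genes of resident large peritoneal macrophages in knock-in and 6 of 7 in wild-type. Of 6 mast cell genes, 1 was higher in knock-in and 6 in wild-type. For the knock-in change minus the wild-type change, 7 of 8 B cell genes were lower (median -1.71), as were 5 of 6 mast cell genes (-2.16), 4 of 8 T and NK cell genes (-1.53) and 3 of 7 genes of resident large peritoneal macrophages (-1.10), and 0 of these lists' genes were higher. The part of these cells in the values of the 10 genes was not tested. Without this pair and knock-in old IFN females 4 and 5, an alternative chosen after seeing the data, 7 of the 10 genes were called for the difference between genotypes, where 2820 of all 21870 genes tested were. Among the 7 were Col1a1 (-1.80, adjusted p = 0.0107) and Igfbp3 (-2.01, adjusted p = 0.00362). Without wild-type young IFN female 1 alone 3 were called. The count was 2 without any 1 of wild-type old IFN female 2, wild-type old untreated male 5, wild-type young untreated male 5, knock-in old untreated male 5 and knock-in young untreated male 2. Calls over all genes in these fits are not given here.

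**Figure D3:**
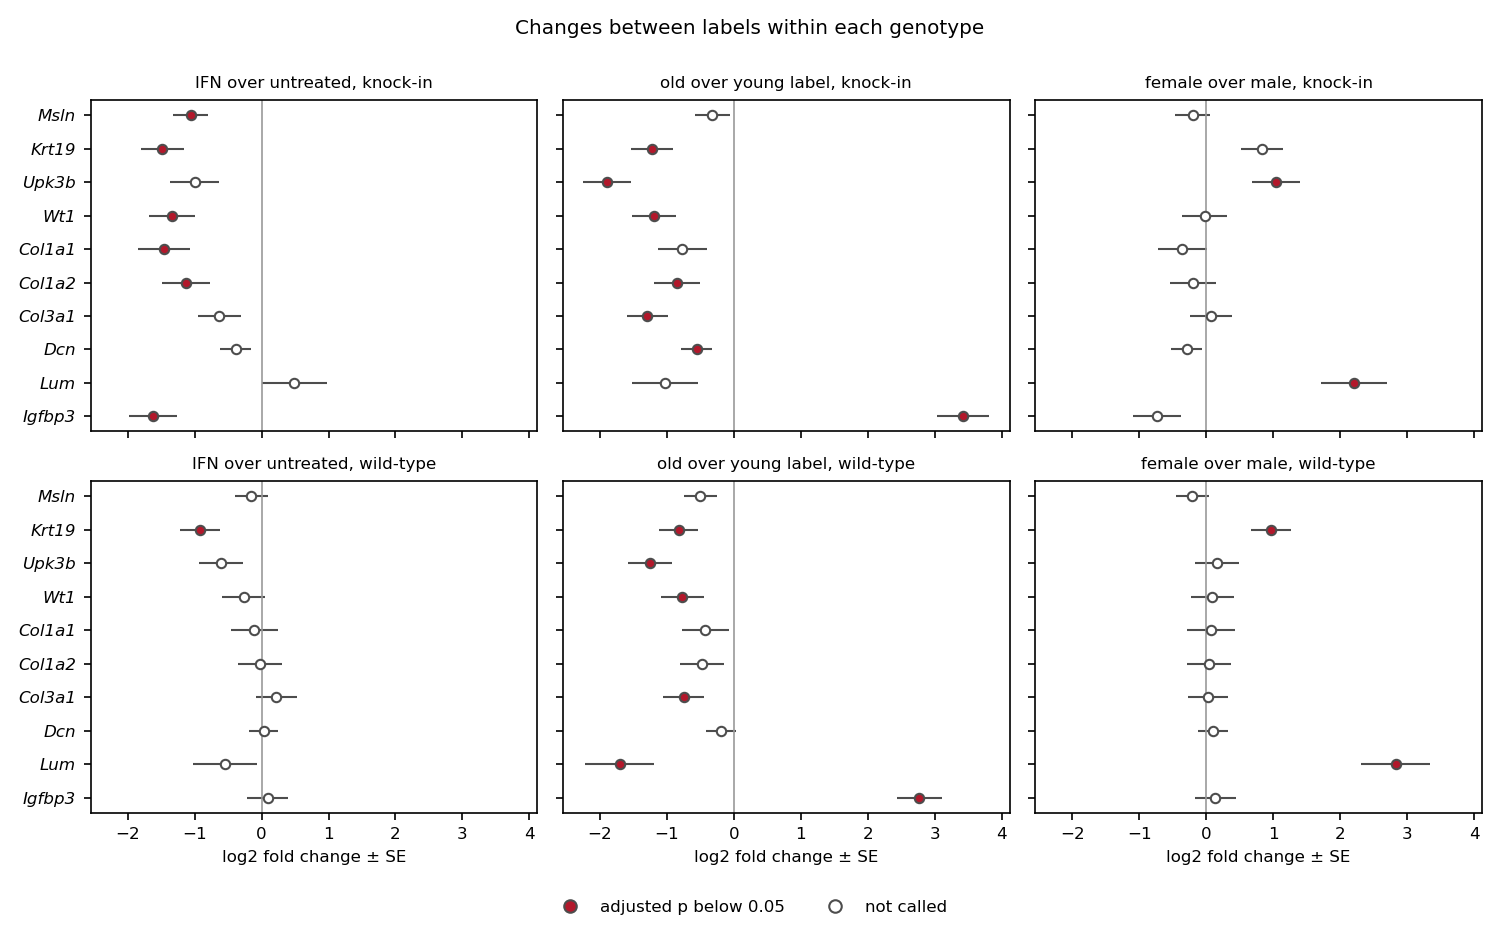
Log2 fold changes of the 10 genes between the labels of treatment, age and sex, in knock-in (upper row) and wild-type libraries (lower row). Points are edgeR estimates with bars of 1 SE, and filled points passed an adjusted p of 0.05. Igfbp3 lies at 3.42 and 2.77 in the age panels, where the other 9 genes are below 0, and Lum leads the sex panels.

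By the age label Igfbp3 was higher in libraries labelled old, and the other genes that passed were lower. In knock-in libraries 7 of 10 genes were called, 1 higher and 6 lower in libraries labelled old, where 60.1% of all genes were called (27.9% higher and 32.2% lower). In wild-type libraries 6 of 10 were called, 1 higher and 5 lower, where 61.1% of all genes were (28.1% higher and 33% lower). In this fit the share of members called is near that of all genes and is not read as a result about them. Of the 10 macrophage genes, 3 were higher and 6 lower in knock-in and 3 higher and 5 lower in wild-type by the same label, and their part in these values was not tested. Without wild-type young IFN female 2 the wild-type count of members was 3, and the share of all genes called in that fit is not given here.

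Igfbp3 had a lowest, median and highest level of 1.38, 3.02 and 10.2 CPM in the 18 knock-in libraries labelled old, against 0.0462, 0.742 and 1.09 CPM in the 13 labelled young. Every old knock-in library was above every young one, as it was for 7.74% of all tested genes. In wild-type, Igfbp3 had 0.497, 4.61 and 8.04 CPM in the 18 libraries labelled old, against 0.0303, 0.547 and 2.04 CPM in the 14 labelled young. There the groups overlapped, with wild-type old IFN female 2 the lowest of the old and wild-type young IFN female 5 the highest of the young, where 7.26% of all tested genes were higher in every old than in every young wild-type library. It rose by 3.42 ± 0.39 on the log2 scale in knock-in (adjusted p = 6.44e-11) and by 2.77 ± 0.34 in wild-type (adjusted p = 3.11e-10). Igfbp3 was called in each of the alternative fits and each fit without 1 library.

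Of the 4 mesothelial genes, Upk3b, Krt19 and Wt1 fell in both genotypes. Upk3b had 0.0107, 0.124 and 0.743 CPM in old knock-in libraries, against 0.201, 0.571 and 1.70 CPM in young ones, a log2 fold change of -1.89 ± 0.36 (adjusted p = 8.22e-06). In wild-type it had 0, 0.188 and 0.533 CPM in old libraries, against 0, 0.469 and 1.11 CPM in young ones, a log2 fold change of -1.25 ± 0.33 (adjusted p = 0.000895). The groups overlapped in both genotypes. Krt19 fell by 1.22 ± 0.31 in knock-in (adjusted p = 0.000607) and by 0.83 ± 0.30 in wild-type (adjusted p = 0.0139), and the wild-type call was lost without wild-type young IFN female 2 (adjusted p = 0.104). Wt1 fell by 1.19 ± 0.33 in knock-in (adjusted p = 0.00161) and by 0.77 ± 0.32 in wild-type (adjusted p = 0.0327). Msln was called in neither genotype, with -0.32 ± 0.26 in knock-in and -0.50 ± 0.25 in wild-type.

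Of the matrix genes, Col3a1 fell in both genotypes, while of the type I collagen chains Col1a2 was called in knock-in and Col1a1 in neither genotype. Col3a1 had 6.06, 15.2 and 44.3 CPM in old knock-in libraries, against 22.7, 59.5 and 78.0 CPM in young ones (log2 fold change -1.29 ± 0.31, adjusted p = 0.000334), and changed by -0.75 ± 0.30 in wild-type (adjusted p = 0.0281). Col1a2 fell by 0.85 ± 0.34 (adjusted p = 0.0288) and Dcn by 0.56 ± 0.23 (adjusted p = 0.0321) in knock-in, while Col1a1 had -0.77 ± 0.36 there (adjusted p = 0.0629). In wild-type Col1a1 had -0.43 ± 0.35 (adjusted p = 0.295), Col1a2 -0.47 ± 0.33 (adjusted p = 0.216) and Dcn -0.19 ± 0.22 (adjusted p = 0.48). Lum fell in wild-type by 1.71 ± 0.52 (adjusted p = 0.0035) and had -1.03 ± 0.49 in knock-in (adjusted p = 0.0666). With near-identical libraries summed, the calls of Col1a2 and Dcn in knock-in and of Col3a1 and Wt1 in wild-type were lost, with adjusted p from 0.112 to 0.155. In fits without 1 library, Col1a2 was called in 27 of 31 and Dcn in 24 of 31 in knock-in, and Col3a1 in 26 of 32 and Wt1 in 23 of 32 in wild-type. Col1a1 gained a call in 4 of 8 other settings in knock-in and in 1 of 8 in wild-type. The 2 type I chains lay on either side of the limit in knock-in, and the difference between them was not tested.

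Igfbp3 was then set against Col1a1 of the same library, a ratio chosen after the values were seen. Per 1000 CPM of Col1a1, Igfbp3 came to 25.3 to 174 CPM in the 36 libraries labelled old, with a median of 71.9, against 1.499 to 18.1 CPM in the 27 labelled young, with a median of 5.17. No library of one label reached into the range of the other. Of the 22146 tested genes other than Col1a1, 11 (0.0497%) had a ratio to Col1a1 that was higher in every old than in every young library, whereas 4.79% had a CPM that was. Col1a1 ran from 6.63 to 210.3 CPM, and dividing by it spreads the ratio of any gene that does not follow it. The 0.0497% is therefore not read as a measure of how rare the separation of Igfbp3 is. In knock-in the ratio was 50.1 to 174 in old and 1.72 to 8.31 in young libraries, and in wild-type 25.3 to 157 in old and 1.499 to 18.1 in young libraries. For Col1a2 the same ratio was 809 to 1642 in old and 885 to 2051 in young libraries, and for Wt1 it was 7.34 to 59.6 in old and 19.5 to 67.4 in young libraries, so that both overlapped.

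**Figure D4:**
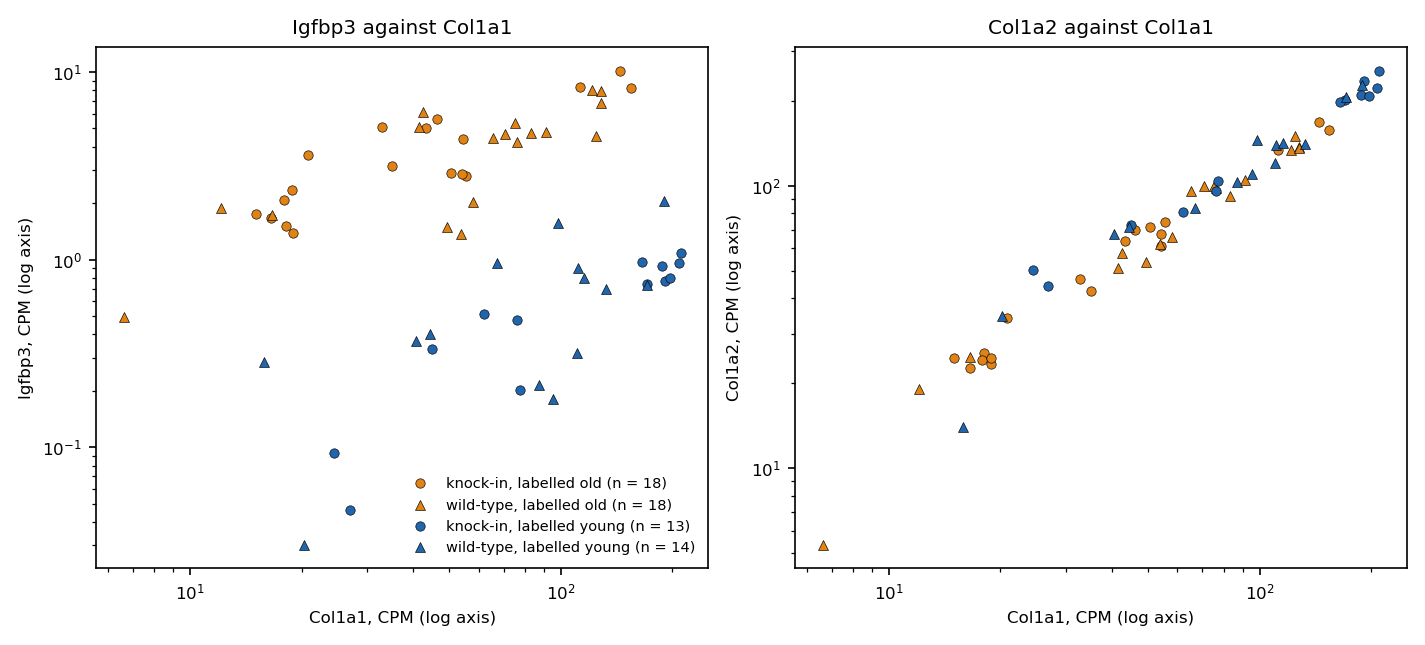
Igfbp3 (left) and Col1a2 (right) against Col1a1 in the same 63 libraries, in CPM on log axes, by genotype and labelled age. Libraries labelled old (36) and young (27) form separate bands for Igfbp3, at 25.3 to 174 and 1.499 to 18.1 CPM per 1000 CPM of Col1a1, and overlap along 1 band for Col1a2, at 809 to 1642 and 885 to 2051.

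Between the sexes Lum differed most. In knock-in libraries Lum had a lowest, median and highest level of 0.01, 0.152 and 0.376 CPM in the 17 females, against 0, 0.0217 and 0.138 CPM in the 14 males. Its log2 fold change, female over male, was 2.21 ± 0.49 (adjusted p = 0.0046). In wild-type it had 0, 0.108 and 0.521 CPM in the 16 females, against 0, 0.0247 and 0.078 CPM in the 16 males, a log2 fold change of 2.83 ± 0.51 (adjusted p = 0.000424). Females were mostly higher, with overlap in both genotypes, and both male medians lay under the level of 3 counts. With near-identical libraries summed Lum was no longer called, with adjusted p of 0.0751 in knock-in and 0.0635 in wild-type.

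Each genotype had 1 further call, so that 2 of 10 genes were higher in females in either genotype, where 4.62% of all genes were in knock-in and 3.54% in wild-type. Upk3b was higher in knock-in females by 1.04 ± 0.36 (adjusted p = 0.0489), and Krt19 in wild-type females by 0.97 ± 0.30 (adjusted p = 0.0492). Upk3b was lost without the 2 knock-in females low in Xist (adjusted p = 0.13) and was called in 10 of 31 fits without 1 library, and Krt19 was called in 12 of 32. With near-identical libraries summed, neither was called (adjusted p = 0.308 and 0.502). In either direction, 12.3% of all genes were called in knock-in and 4.23% in wild-type. Of other cell types, 6 of 8 B cell genes were higher in knock-in females and 8 of 8 in wild-type females, as were 0 of 7 and 7 of 7 genes of resident large peritoneal macrophages, and their part in these values was not tested. The collagens did not pass in either genotype, with log2 fold changes from -0.36 ± 0.37 (Col1a1 in knock-in) to 0.08 ± 0.32 (Col3a1 in knock-in).

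The wider lists of genes from the same cell types hold the members too. With the IFN label 7.98% of all genes were called in knock-in and 31.3% in wild-type. Of 28 fibroblast genes, all tested, 12 were lower and 0 higher with the IFN label in knock-in, and 1 was lower and 4 higher in wild-type. Beyond the members, the lower genes in knock-in included Fbln1 (-1.58 ± 0.39, adjusted p = 0.00489), which encodes fibulin-1, and Col5a1 (-1.28 ± 0.32, adjusted p = 0.00632), a chain of type V collagen. In wild-type Pi16, a marker of adventitial fibroblasts, was higher by 1.53 ± 0.34 (adjusted p = 0.000389). For the difference between genotypes, 6 of 28 were lower and 0 higher, with a median of -1.13 against -0.01 over all genes, where 12% of all genes were called. Genes of B cells, mast cells, T and NK cells and resident large peritoneal macrophages were lower in the same difference, in the counts given above. Of 21 tested mesothelial genes, 10 were lower and 1 higher with the IFN label in knock-in, and 2 were lower and 2 higher in wild-type. Upk1b had -1.51 ± 0.38 (adjusted p = 0.0069) and Podxl, a sialomucin of podocytes and mesothelium, -1.17 ± 0.29 (adjusted p = 0.00554) in knock-in. Slpi, a secreted protease inhibitor in that list that macrophages also make, reached 2195 CPM, and the list's sum was highest, at 2207 CPM, in wild-type old IFN female 2, where Wt1 was at its lowest level.

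By the age label, 12 of 21 mesothelial genes were lower and 3 higher in either genotype, and 12 of 28 fibroblast genes were lower and 2 higher in knock-in, 7 lower and 2 higher in wild-type. By this label 60.1% of all genes were called in knock-in and 61.1% in wild-type, so these counts, and those of the other lists by age, are not read as results about the lists. Among the 8 tested IGF-binding proteins and ligands, 3 were lower and 2 higher in either genotype. Igfbp5, a matrix-bound member of the family that is also in the mesothelial list, was the other gene higher in libraries labelled old, by 2.28 ± 0.37 in knock-in (adjusted p = 4.68e-07) and 2.97 ± 0.36 in wild-type (adjusted p = 3.89e-10). Igfbp4, a soluble member of the family, was lower by 1.82 ± 0.23 in knock-in (adjusted p = 1.56e-09), and Igf1, a ligand that macrophages also make, by 1.32 ± 0.20 (adjusted p = 1.11e-07). Of 6 tested small leucine-rich proteoglycans, 4 were lower and 0 higher in either genotype, among them Fmod, fibromodulin, by 2.57 ± 0.47 in knock-in (adjusted p = 5.04e-06) and 2.04 ± 0.45 in wild-type (adjusted p = 0.000102).

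Of 24 enzymes and chaperones of collagen maturation, many of them used by all cells, 11 were lower and 4 higher by the age label in knock-in, and 8 lower and 4 higher in wild-type, beside 60.1% and 61.1% of all genes called in either direction. With the IFN label 7 were lower and 0 higher in knock-in, Serpinh1 by 1.29 ± 0.35 (adjusted p = 0.0121) and Plod2, a lysyl hydroxylase, by 1.03 ± 0.28 (adjusted p = 0.0126), and 3 lower and 1 higher in wild-type. Of 7 tested genes of smooth muscle and pericytes, another stromal type, 1 was lower and 0 higher with the IFN label in knock-in, and 0 lower and 1 higher in wild-type. By the age label 5 were lower and 0 higher in knock-in, and 4 lower and 1 higher in wild-type. Their summed level was 2.30 to 46.5 CPM, that of 6 epithelial genes 0.53 to 5.75 CPM, and that of 6 adipocyte genes 0 to 0.705 CPM, with the adipocyte gene Lep at 0 in all 63 libraries.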

How the data were processed

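RNA of adherent peritoneal cells was sequenced with a directional polyA kit, per the labels' protocols. The authors deposited counts per gene and FPKM values, and 63 columns of each were matched to the labels by title. Per the submitters' processing notes, STAR 2.7.9a, GRCm39 and DESeq2 1.40.2 were used, and no counting tool is named there. FPKM as deposited served only to compare levels between genes. Of 56748 genes, 22147 were kept by filterByExpr, holding 99.992% of counts, and 17641 had no count.

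CPM were computed with TMM factors (0.886 to 1.233). The edgeR 4.0.16 quasi-likelihood test was fitted in R 4.3.3 with limma 3.58.1 and 1 coefficient per group over all 16 groups, giving 47 residual degrees of freedom, and p-values were adjusted by Benjamini-Hochberg over all tested genes at 0.05. Averages weighted sex, age and treatment strata equally. On simulated counts of the genotype comparison, run on 22147 genes, the test recovered 84% of genes changed 2-fold and 99% of those changed 4-fold. It also called 12 unchanged genes. The simulated libraries were independent, so these shares do not hold for libraries that may be technical repeats. DESeq2 1.42.0, RLE size factors, no filter, replicate blocks and leaving out each library were alternatives. Leaving out 4 libraries that stand apart and summing near-identical libraries were chosen after seeing the data. Counts were of reads, so the 3-count limit covers counting error only.

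The members and lists were chosen with earlier results of these data known. Members are always named, and of each wider list at most 4 called genes per comparison, by smallest p, were eligible to be named. Symbols came from GENCODE vM21 by gene identifier, with 52073 of the identifiers matched and 4675 not. A further promoter motif was searched and is not reported here.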

Additional observations from a re-analysis of the deposited data

Results flagged for a closer look

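In groups of 4 to 10 libraries, a library far from the others of its group was looked for in 80 groups of values, and 2 were found, where chance marks about 1 in 20 groups. Upk3b was at 0.0899 CPM in wild-type old IFN male 3, against 0.151 to 0.172 CPM in the other 4 libraries of its group. Lum was at 0.0102 CPM, a single count, in wild-type old IFN male 4, against 0 in the other 4. The change of Igfbp3 with the IFN label differed between the genotypes by -1.71 on the log2 scale, knock-in minus wild-type, in the test of the difference itself (edgeR adjusted p = 0.0149). It kept this sign in all 63 fits without 1 library, with differences from -1.962 to -1.578 and adjusted p from 0.00716 to 0.0437, and adjusted p over the other alternatives ran from 0.00362 to 0.144.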

How the results depend on the processing

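Members called changed by over 1.5 times as follows. For genotype in young IFN females (1), the count was 2 by DESeq2, 2 without the 4 libraries that stand apart and 0 with near-identical libraries summed; in old IFN males (0) it was 1 without the 4 libraries. With near-identical libraries summed it was 2 for the IFN label in knock-in (6), 0 for it in wild-type (1), and 0 for sex in either genotype (2 each) and for genotype by IFN label (1). For sex in knock-in it was 1 with no filter (1612 of all 39107 genes called) and 1 without the 2 females low in Xist (2962 of 22132). For sex in wild-type it was 1 with no filter (738 of 39107). For genotype by IFN label it was 2 by DESeq2 (3301 of 20425 genes), 2 without the 2 females (2624 of 22132) and 7 without the 4 libraries (2820 of 21870). The cause was not tested, except that summing leaves 46 libraries. Calls over all genes moved as well. For genotype in young IFN females they were 840 of 22147, against 1554 of 17420 by DESeq2 and 454 of 21870 without the 4 libraries. In old IFN males they were 1311 of 22147, against 2074 of 21870 without the 4 libraries. With libraries summed, wild-type calls were 2616 of 22949 for the IFN label and 32 for sex, against 6922 and 937 of 22147. Knock-in calls for these labels fell too. Without 1 library, counts ranged from 0 to 1 (genotype in young IFN females), 3 to 6 and 1 to 1 (IFN label, knock-in and wild-type), 5 to 9 and 3 to 7 (age label), 1 to 2 and 1 to 2 (sex), 1 to 3 (genotype by IFN label) and 0 to 0 in the other comparisons. Calls over all genes in the fits without 1 library are not given here, so these ranges are not read as results about the members. No gene reversed its sign where it was called in either fit. Msln by the age label in knock-in, which was not called, went from -0.32 to as high as 0.04 without 1 library. For single genes, 1676 values kept their side of the threshold, 106 lost and 50 gained a call.

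Over all genes, the genotype average called 257 genes, and 720 by DESeq2, 426 without the 4 libraries and 7 with libraries summed; genotype by IFN label called 2666 and, summed, 20.

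Replicate numbers were not taken to pair libraries, since the labels do not state that they mark shared animals. Not every same-numbered pair had a correlation over 0.1 (11 of 26 across treatment labels and 17 of 26 across age labels). This does not exclude pairing. The median correlation was 0.067 across treatment labels, against -0.019 for 97 pairs with different numbers, and 0.16 across age labels, against -0.048. Of 26 libraries, 14 and 15 correlated best with their own number, a hint of pairing from the data and not the design. By these medians same-numbered libraries were more alike across either label. Their correlations ran from -0.151 to 0.411 across treatment labels and from -0.585 to 0.474 across age labels. If the labels hold, libraries of different age cannot share a mouse. Whether the age and treatment labels were exchanged was not tested with these values. With the replicate block across treatment labels, members called were 5 (IFN label, knock-in), 1 (wild-type) and 1 (genotype by IFN label). Of all 22147 genes 1248, 6624 and 1806 were. Across age labels they were 9 and 9 (age label, knock-in and wild-type) and 0 (genotype by age), beside 11866, 12935 and 0 of all genes. There Col1a1 and Lum gained a call in knock-in and Msln, Col1a1 and Col1a2 in wild-type. With a block by number, the IFN label gave 6 and 1 and genotype by IFN label 1, beside 1489, 6901 and 2630 of all genes. The age label gave 9 and 7 and genotype by age 0, beside 13500, 13695 and 0. Sex gave 3 and 2, beside 1954 and 1268. Libraries agreeing within counting noise were to be summed, and none did. Depth limits Lum and Upk3b.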
